A study of Mus musculus with 2 samples.

Results

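The genes described here encode the translation initiation factors (eIFs) and elongation factors (eEFs) and the proteins named after them, in mouse splenocytes after immunization with glucose-6-phosphate isomerase (GPI), which induces arthritis. They were chosen by symbol: every gene whose symbol begins with Eif or Eef and that is read by a probe set annotated to that gene alone, leaving out the eIF2 kinases (Eif2ak genes), Eif2s3x and Eif2s3y. This gave 47 of the 12393 genes on the array, 36 named for initiation and 11 for elongation, read by 106 of 20380 probe sets. Where a gene had several probe sets, the brightest on average (log2 scale) stands for it. The animals were DBA/1 males aged 6 to 8 weeks. They had been immunized with 300 μg of recombinant human GPI fused to glutathione S-transferase (GPI-GST) or, as controls, with 100 μg of GST alone, both in complete Freund's adjuvant, so that both groups had received adjuvant and the GST carrier. Splenocyte RNA of day 10 was hybridized to Affymetrix mouse 430A 2.0 GeneChips, 1 array per group. The study took 3 spleens per group, and the sources used here do not say whether their RNA was pooled. With no replicate in either group nothing could be tested, and each ratio describes these 2 arrays.

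Protein synthesis begins when eIF2, with GTP and the initiator tRNA, joins the small ribosomal subunit together with eIF1, eIF1A, eIF3 and eIF5, while eIF4F (the cap-binding protein eIF4E, the scaffold eIF4G and the RNA helicase eIF4A) brings the mRNA. Elongation follows, in which eEF1A delivers aminoacyl-tRNAs and eEF2 moves the ribosome along the mRNA. Lymphocytes and myeloid precursors that are stimulated to grow enlarge this machinery, and the signalling kinases mTOR and the eIF2 kinases set its activity mostly through phosphorylation of the proteins, which an array of mRNA does not read.

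Initiation factors mostly had slightly higher signals on the GPI-immunized array than on that of the controls, and the median ratio of the elongation factors was close to that of all genes. The measure is the GPI-immunized over the control signal, a ratio, where a signal is the deposited intensity of a probe set on a linear scale. Of the 47 genes, 45 had a mean signal at or above 50.2, the 50th percentile of all signals, including every initiation factor and 9 of 11 elongation factors. The ratio was above 1 for 30 of 36 initiation factors, against 57.6% of the 6784 genes with that mean signal, and below 1 for the other 6, against 42.4% of those genes. Their ratios ran from 0.917 to 1.47, with a median log2 ratio of 0.20 against 0.055 for all 6784 genes, and 26 of the 36 lay above that median. For the 9 elongation factors the median log2 ratio was 0.064, with 7 above and 2 below a ratio of 1. The differences were small throughout. At a ratio of at least 1.5, which 6.34% of all genes reached, there were 0 of 36 initiation and 0 of 9 elongation factors, and at a ratio of at most 1/1.5, reached by 2.89%, there were 0 of both. No factor with that mean signal was therefore past a 2-fold ratio either, where 1.81% of genes were higher and 0.295% lower. Fewer cells of a type and less RNA per cell cannot be told apart in RNA of whole splenocytes.

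**Figure D1:**
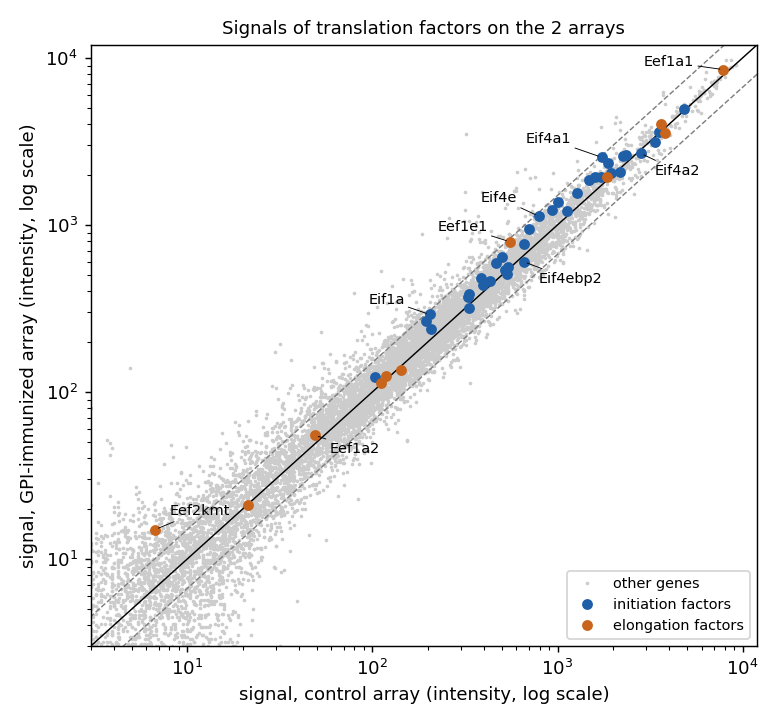
Deposited intensity of each gene on the GPI-immunized array (vertical, log scale) and on the control array (horizontal, log scale), 1 array per group; the solid line marks a ratio of 1 and the dashed lines 1.5-fold. Most initiation factors lie just above the solid line, led by Eif4a1 at 2539.9 in GPI-immunized and 1730.1 in control cells, and of the elongation factors Eef1e1 (793.3 in GPI-immunized and 551.4 in control cells) lies furthest from it among those with a mean signal of at least 50.2.

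How small a ratio can be read was judged from genes with several probe sets. Across 2418 genes, the log2 ratios of the 2 brightest probe sets of one gene scattered with an SD of 0.24 per probe set, a factor of 1.18, and their signs were the same for 68.1% of these genes. Among the 1006 genes with a pair of probe sets at or above the 75th percentile the SD was 0.20. This spread holds no difference between mice or hybridizations. The median of all 22626 non-control probe sets was 51.8 for GPI-immunized mice and 48.65 for control mice, a log2 ratio of 0.091, which is of the size of the ratios at issue. Sequences of bioB, bioC, bioD and cre, which the usual protocol adds to the hybridization mix in fixed amounts, ran the other way, with a median log2 ratio of -0.20 (SD 0.13 over 18 probe sets, 17 of them below 1). The sources used here do not say whether they were added in equal amounts. Dividing each array by its median left 25 of 36 initiation factors above a ratio of 1, against 45.1% of all genes. Dividing by these controls put all 36 above 1, against 78.7% of all genes. After division by the median Eif1b, Eif3f, Eif3h, Eif4enif1 and Eif5a were below 1, and the 6 that were below 1 as deposited, Eif4a2 among them, were above 1 only with division by the controls among these scalings. The median of the initiation factors lay above that of all genes by 0.15 on the log2 scale with the deposited values, a gap that division by a constant cannot alter, by 0.16 after quantile normalization and by 0.15 after loess centring. That of the elongation factors lay 0.0089 above it with the deposited values, 0.000044 after quantile normalization, 0.026 after loess centring, 0.043 with averaged probe sets and 0.063 when a mean signal at the 75th percentile was required. The direction of the elongation median itself depended on the scaling, being -0.026 after division by the median or quantile normalization. Over all genes, 430 were at least 1.5-fold higher and 196 lower (68.7% higher), against 313 and 329 (48.8% higher) after division by the median, 315 and 323 (49.4%) after quantile normalization, 333 and 308 (52.0%) after loess centring and 952 and 77 (92.5%) after division by the hybridization controls.

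**Figure D2:**
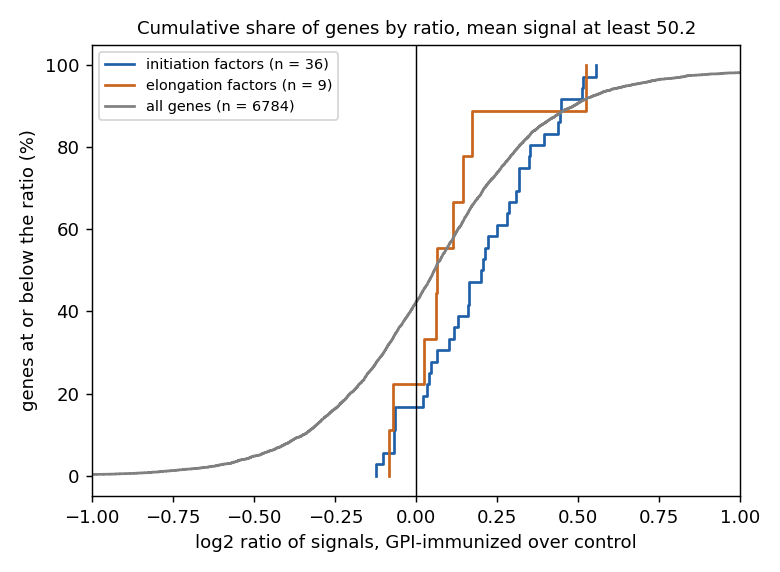
Cumulative share of genes (vertical axis, percent) by log2 ratio, GPI-immunized over control (horizontal axis), for the 36 initiation factors, the 9 elongation factors with a mean signal of at least 50.2 and the 6784 genes with that mean signal. The line of the initiation factors runs to the right of that of all genes over the middle of its range, with medians of 0.20 and 0.055, and both factor lines are steeper than that of all genes.

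**Figure D3:**
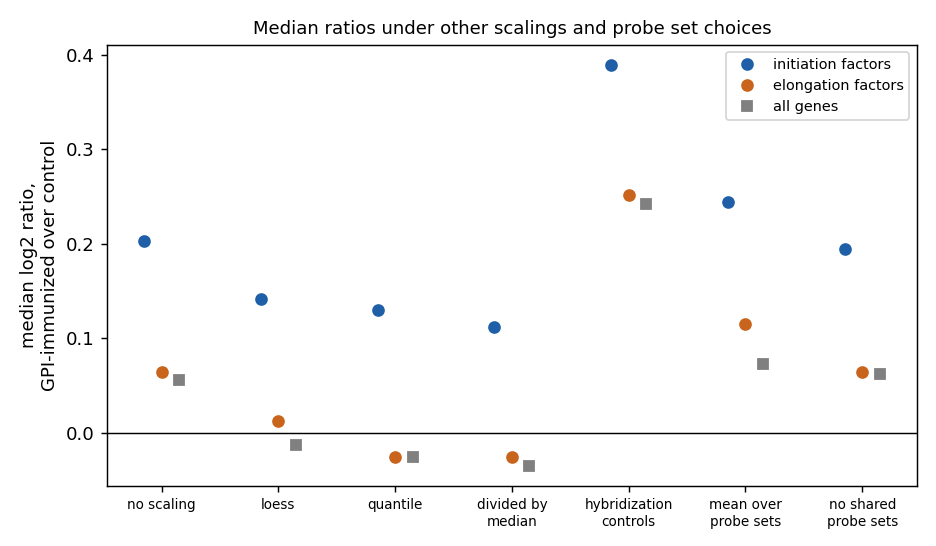
Median log2 ratio, GPI-immunized over control (vertical axis) for the initiation factors, the elongation factors and all genes, with the deposited values and under 6 other settings (horizontal axis). The initiation median lies above the other medians in each setting, from 0.11 to 0.39, and the elongation median stays close to that of all genes.

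The promoter sequences of the helicase pair Eif4a1 and Eif4a2 and of the cap-binding gene Eif4e are shown because Eif4a1 and Eif4e had the 2 highest ratios among the initiation factors while Eif4a2, which encodes a protein closely related to eIF4A1, had a ratio of 0.955. They are the 250 bases before the annotated start, 5′ to 3′ on the strand of the gene, from RefSeq (GRCm38.p6). Capitals mark the letters CACGTG (the E-box bound by MYC and related factors) and AAGATGGC (the core of the YY1 motif). The windows are chr11:69672424-69672673 (minus strand) for Eif4a1, chr16:23107218-23107467 (plus strand) for Eif4a2 and chr3:138527018-138527267 (plus strand) for Eif4e, for 1 of its 2 annotated starts. That start of Eif4e was picked because its window holds CACGTG, so the presence of CACGTG there is no result.
Eif4a1: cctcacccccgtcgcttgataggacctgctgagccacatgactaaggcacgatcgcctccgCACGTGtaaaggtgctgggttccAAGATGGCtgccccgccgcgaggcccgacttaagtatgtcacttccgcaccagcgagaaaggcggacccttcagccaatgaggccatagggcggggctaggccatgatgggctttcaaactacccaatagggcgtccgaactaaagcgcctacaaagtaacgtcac
Eif4a2: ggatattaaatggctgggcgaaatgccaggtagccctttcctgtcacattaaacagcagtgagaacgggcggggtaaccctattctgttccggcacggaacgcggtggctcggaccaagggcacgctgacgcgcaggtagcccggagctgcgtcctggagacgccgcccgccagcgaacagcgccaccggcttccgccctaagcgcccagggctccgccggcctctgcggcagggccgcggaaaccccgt
Eif4e: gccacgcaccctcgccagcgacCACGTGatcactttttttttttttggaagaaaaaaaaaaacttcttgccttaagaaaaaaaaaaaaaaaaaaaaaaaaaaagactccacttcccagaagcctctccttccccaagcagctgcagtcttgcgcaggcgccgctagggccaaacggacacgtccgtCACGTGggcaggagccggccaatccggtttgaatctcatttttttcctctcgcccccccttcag

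Eif4a1 holds CACGTG with its first base at -189 and AAGATGGC at -166, counted from the start. The window picked for Eif4e holds CACGTG at -228 and at -64, and AAGATGGC at 27, just after the start and outside the printed stretch. Neither motif, nor CCGGAAG of the ETS family, is in the window of Eif4a2. The window searched on both strands reaches from 250 bases before to 50 after the start, no 2 matches shown here overlap, and of the 45 factors with sufficient signal 35 had an entry in the table, 29 of them with a single start. CACGTG was present for 8 of 28 initiation factors (28.6%) and 2 of 7 elongation factors, against 13% of the 5612 genes with sufficient signal and an entry. Initiation factors with and without it had median log2 ratios of 0.16 and 0.18. CCGGAAG was present for 12 of 28 initiation factors (42.9%), against 23.8% of those genes, and the medians with and without it were 0.15 and 0.24. AAGATGGC was present for 3 of 28 (Eif3f, Eif4a1 and Eif4e) and for 1 of 7 elongation factors (Eef1e1, at 33 after the start), against 6.29%. Of these 4 genes, Eif4a1, Eif4e and Eef1e1 had ratios of 1.47, 1.43 and 1.44 in this order, and Eif3f had a ratio of 1.01. Over all 5612 genes the median log2 ratios with and without AAGATGGC were close, at 0.081 and 0.055. A relation of motif and ratio was not tested. A start-site C followed by 4 pyrimidines, the shape of the 5′ terminal oligopyrimidine (TOP) tract through which mTOR controls mRNAs of the translation machinery, was found at the annotated start of 1 of 28 initiation factors (Eif3f, 3.57%) and 0 of 7 elongation factors, against 3.1% of those genes. A match describes the letters in this window and is not a binding site.

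Among the proteins that find the start codon, both eIF1A genes had higher signals on the GPI-immunized array. eIF1A opens the small subunit for scanning and is encoded by an autosomal and an X-linked gene. Eif1a had a signal of 290.7 in GPI-immunized and 203.9 in control splenocytes, a ratio of 1.43, and its second probe set had 162.0 in GPI-immunized and 104.2 in control cells. Eif1ax had 947.5 in GPI-immunized and 697.4 in control cells (ratio 1.36), with its second probe set at a ratio of 1.15. Eif1b, a relative of the start codon selection factor eIF1, had 535.0 in GPI-immunized and 520.1 in control cells and a ratio of 1.03. The log2 ratios of Eif1a and Eif1b differed by 0.47 and those of Eif1ax and Eif1b by 0.40, against an SD of 0.34 that the spread between probe sets gives for a difference of 2 genes. With averaged probe sets these differences were 0.53 and 0.28, the second within that SD. Eif1a and Eif1ax differed by 0.070.

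The β subunit of eIF2, the GTPase that carries the initiator tRNA, was the member with the most probe sets. Eif2s2 had signals of 2342.3 in GPI-immunized and 1878.8 in control splenocytes (ratio 1.25), and all 5 of its probe sets with sufficient mean signal had ratios between 1.23 and 1.37. Eif5b, the GTPase that joins the ribosomal subunits, had 483.3 in GPI-immunized and 388.2 in control cells (ratio 1.24) and a second probe set at 1.36. These genes are thus among the more evenly read of the set. Eif5, which triggers GTP hydrolysis on eIF2, had 1923.9 in GPI-immunized and 1719.4 in control cells (ratio 1.12), but its 4 probe sets ran from 0.878 to 1.29. Eif2d, a factor for initiation without eIF2 and for recycling, had 319.3 in GPI-immunized and 333.8 in control cells (ratio 0.957), with probe sets from 0.790 to 1.07. For both genes the probe sets therefore lay on both sides of 1.

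eIF2B, a complex of α to ε subunits, recharges eIF2 with GTP and is the enzyme blocked when eIF2 is phosphorylated. The 4 measured subunit genes all had ratios above 1, with a median log2 ratio of 0.18. Eif2b1 (α) had 265.6 in GPI-immunized and 194.7 in control splenocytes, a ratio of 1.36. Eif2b5 (ε, the catalytic subunit) had 239.2 in GPI-immunized and 207.5 in control cells (ratio 1.15) and Eif2b4 (δ) had 368.9 in GPI-immunized and 329.2 in control cells (ratio 1.12). Eif2b2 (β) had 462.1 in GPI-immunized and 430.6 in control cells, a ratio of 1.07, and its dimmest probe set with sufficient signal was at 0.941. The α subunit, which holds the complex together, was the furthest from 1 among these 4, and the γ subunit was not measured. The log2 ratios of Eif2b1 and the next, Eif2b5, were 0.45 and 0.21, each from 1 probe set. They lay less far apart than the SD of 0.34 for a difference of 2 genes that the spread between probe sets gives.

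eIF3, the large complex that holds the small subunit and the mRNA together, was read through 11 subunit genes, all of them with ratios above 1 as deposited (median log2 ratio 0.28), although Eif3f was below 1 after division by the medians, quantile normalization or loess centring and Eif3h after the first 2 of these. The median was 0.19 after division by the array medians and 0.18 after quantile normalization. Eif3d, whose product can itself bind the cap of some mRNAs, had 1369.8 in GPI-immunized and 1012.0 in control splenocytes (ratio 1.35). Eif3l had 1226.8 in GPI-immunized and 933.4 in control cells (ratio 1.31), and Eif3b, a core scaffold subunit, 640.2 in GPI-immunized and 502.3 in control cells (ratio 1.27). Eif3a, the largest subunit, had a ratio of 1.24, with 3 probe sets from 1.12 to 1.45, and Eif3c one of 1.22, with 4 probe sets from 1.12 to 1.76. Eif3k followed at 1.21, Eif3m at 1.16 and Eif3i at 1.15, the last with a second probe set at 0.962. At the lower end were Eif3e (2632.4 in GPI-immunized and 2356.7 in control cells, ratio 1.12, its other probe sets at 1.00 and 1.01), Eif3h (2034.5 in GPI-immunized and 1945.3 in control cells, ratio 1.05) and Eif3f (3598.1 in GPI-immunized and 3548.7 in control cells, ratio 1.01).

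Among the genes of eIF4F and their relatives, ratios within a family were unequal for Eif4a1 and Eif4a2 and for Eif4e and Eif4e2. They were close for Eif4g2 and Eif4g3, where the first log2 ratio minus the second was -0.033. Eif4a1, the helicase that unwinds the 5′ end of the mRNA, had 2539.9 in GPI-immunized and 1730.1 in control splenocytes. Its ratio of 1.47 was the highest among the initiation factors and higher than that of 92.7% of all genes, and its 3 probe sets ran from 1.16 to 1.67. Eif4a2 had 2681.8 in GPI-immunized and 2809.4 in control cells, a ratio of 0.955. The log2 ratios of the pair differed by 0.62, which did not change with scaling by a constant and exceeded the SD of 0.34 for a difference of 2 genes. The second-brightest probe set of Eif4a1 had a log2 ratio of 0.21, nearer to the -0.067 of Eif4a2. Eif4e, the cap-binding protein, had 1128.6 in GPI-immunized and 789.3 in control cells (ratio 1.43), with a second probe set at 1.20. Eif4e2, which binds the cap but represses translation, had 434.5 in GPI-immunized and 397.6 in control cells (ratio 1.09, both probe sets alike), and Eif4e3 had 122.1 in GPI-immunized and 102.8 in control cells (ratio 1.19), with a dimmer probe set at 1.85. The log2 ratio of Eif4e exceeded that of Eif4e2 by 0.39, more than the SD for a difference of 2 genes, and that of Eif4e3 by 0.27, less than that SD, and the sign of the comparison with Eif4e3 turned to -0.14 when all probe sets of a gene were averaged.

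The measured scaffold and helper genes grouped with eIF4F lay close to 1 by their brightest probe sets. The eIF4G gene Eif4g1 is not among the 47 genes, so its signal is not given here. Eif4g2 (DAP5, a scaffold without the eIF4E site) had 3126.6 in GPI-immunized and 3354.6 in control splenocytes, a ratio of 0.932 from a probe set of a type that may be shared by several transcripts, whereas its other probe sets with sufficient signal reached 1.14. Eif4g3 had 507.3 in GPI-immunized and 532.1 in control cells (ratio 0.953). Eif4b, which stimulates the helicase, had 1213.8 in GPI-immunized and 1119.3 in control cells (ratio 1.08), with 3 probe sets from 1.08 to 1.22. Eif4h, with a similar task, had 2076.5 in GPI-immunized and 2179.4 in control cells (ratio 0.953), with probe sets up to 1.22. The genes grouped here with eIF4F number 9 and reach beyond the complex itself, since they include Eif4b, Eif4h, Eif4e2 and Eif4g2. Of these 9 genes 5 were above a ratio of 1, with a median log2 ratio of 0.12, which was 0.026 after division by the array medians.

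The measured genes for proteins that restrain eIF4E had ratios on both sides of 1. Eif4ebp1 (4E-BP1), released from eIF4E when mTOR phosphorylates it, had 386.9 in GPI-immunized and 333.9 in control splenocytes (ratio 1.16), with a second probe set at 1.36. Eif4ebp2 had 601.7 in GPI-immunized and 656.5 in control cells. Its ratio of 0.917 was the lowest among the initiation factors, yet a dimmer probe set of the same gene was at 1.32. The log2 ratio of Eif4ebp1 minus that of Eif4ebp2 was 0.34 with the brightest probe sets, 0.57 without shared probe sets and -0.24 with averaged ones, so that its sign depended on the choice of probe set. Eif4enif1 (4E-T), which carries eIF4E to sites of mRNA storage, had 556.7 in GPI-immunized and 539.1 in control cells (ratio 1.03).

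Eif6, which keeps the large ribosomal subunit from joining too early and takes part in its assembly, had 590.1 in GPI-immunized and 463.3 in control splenocytes, a ratio of 1.27. Eif5a, the factor that carries the modified amino acid hypusine and helps the ribosome through difficult stretches, had 4910.1 in GPI-immunized and 4798.6 in control cells (ratio 1.02). A second probe set of Eif5a had a ratio of 1.51, so the gene is not settled by its brightest probe set. The enzymes that make hypusine, Dhps and Dohh, had ratios of 0.997 and 1.11.

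Elongation factors proper lay near 1. Eef1a1, which delivers aminoacyl-tRNAs, had 8505.5 in GPI-immunized and 7870.0 in control splenocytes (ratio 1.08), and its relative Eef1a2, the form of muscle and neurons, had 55.1 in GPI-immunized and 48.9 in control cells (ratio 1.13). Eef1b2, part of the exchange factor of eEF1A, had 3571.9 in GPI-immunized and 3787.0 in control cells (ratio 0.943), and its partner Eef1d 1928.0 in GPI-immunized and 1847.2 in control cells (ratio 1.04), with a second probe set at 0.944. Eef2, the translocase, had 4015.1 in GPI-immunized and 3633.0 in control cells (ratio 1.11). The exception in this group was Eef1e1, named for elongation but known as AIMP3, a scaffold protein of the complex of aminoacyl-tRNA synthetases. It had 793.3 in GPI-immunized and 551.4 in control cells, a ratio of 1.44, higher than that of 91.8% of all genes and read by 1 probe set.

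The enzymes that act on elongation factors were mostly dim, as was Eefsec, itself an elongation factor. Eef2k, the kinase that inhibits eEF2, had 135.6 in GPI-immunized and 142.6 in control splenocytes (ratio 0.951). Eefsec, which delivers selenocysteine tRNA, had 113.1 in GPI-immunized and 111.2 in control cells (ratio 1.02), and the eEF1A methyltransferase gene Eef1akmt1 had 123.7 in GPI-immunized and 118.3 in control cells (ratio 1.05). The other 2 genes were under the mean signal of 50.2. Eef1aknmt, another eEF1A methyltransferase, had 21.1 in GPI-immunized and 21.4 in control cells. Eef2kmt, the eEF2 methyltransferase, had 15.0 in GPI-immunized and 6.7 in control cells, where the Bacillus control probe sets, for which no target is expected, reached 14.1, so its ratio is not interpreted. With signals raised to 14.1 its log2 ratio was 0.089.

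**Figure D4:**
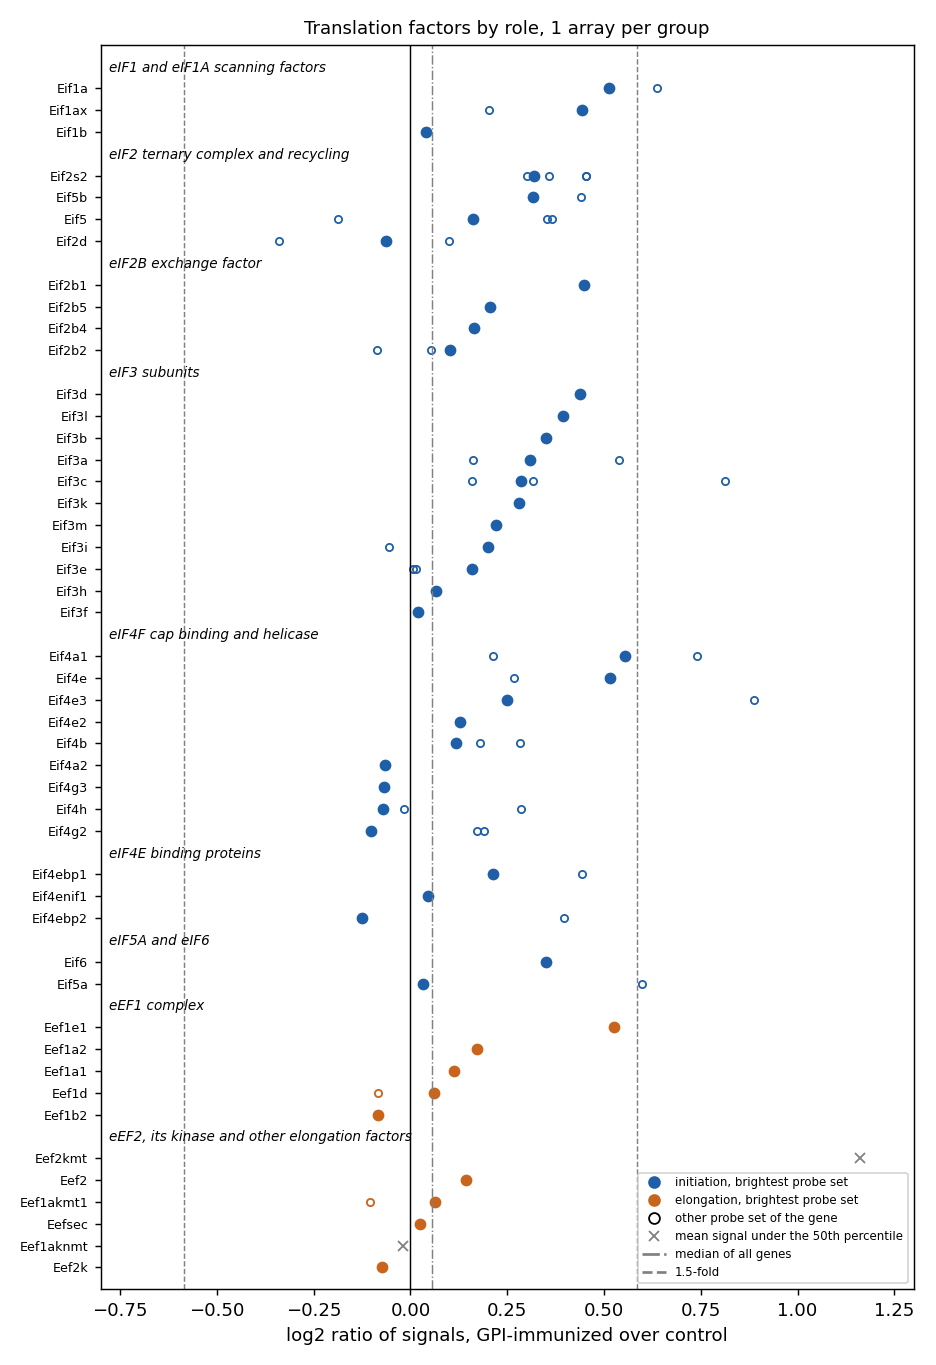
Log2 ratio, GPI-immunized over control (horizontal axis) for the 47 genes by role (vertical axis), with the brightest probe set of a gene filled, its other probe sets with sufficient mean signal open and the 2 genes under 50.2 as crosses; lines mark a ratio of 1, the median of all genes (0.055) and 1.5-fold. All 11 eIF3 genes lie to the right of 0 with the deposited values (Eif3f and Eif3h do not after division by the medians), Eif4a1 and Eif4a2 lie at 0.55 and -0.067, and 7 initiation and 2 elongation factors have probe sets on both sides of 0.

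Of the 21 initiation factors with several probe sets of sufficient signal, 14 had all of them above a ratio of 1, 0 had all of them below and 7 had some on each side, as did both elongation factors of this kind. Of the 6 initiation factors with a ratio below 1, 4 (Eif2d, Eif4ebp2, Eif4g2 and Eif4h) had another such probe set above 1, and the other 2, Eif4a2 and Eif4g3, were read by 1 probe set. The 9 initiation factors with a mean log2 signal of at least 11 had a median log2 ratio of 0.033, with 6 above 1, and the 8 between 10 and 11 had one of 0.28, with 8 above 1. All genes in these ranges had medians of 0.020 and 0.056, and across the 36 initiation factors Spearman's rho of log2 ratio with mean log2 signal was -0.24, a description across genes of the same 2 arrays. The part of brightness in the ratios was not tested.

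Several factor mRNAs carry a TOP tract, as those of ribosomal proteins do. The list of such factors used here rests on prior knowledge and not on the scan of annotated starts, which matched Eif3f alone among them. Its 8 measured members (Eef1a1, Eef1b2, Eef1d, Eef2, Eif3e, Eif3f, Eif3h and Eif4b) had ratios from 0.943 to 1.12 and a median log2 ratio of 0.088, of which 7 were above 1. This median was -0.0022 after division by the array medians and -0.0019 after quantile normalization. The 32 initiation factors outside the list had a median of 0.22. Ribosomal protein genes, 45 of them with sufficient signal, had a median log2 ratio of 0.017. Of these 45 genes 27 (60%) were above 1, against 57.6% of all genes. The median of all genes, 0.055, lay between those of the ribosomal protein genes and the TOP list. These differences between lists were not tested.

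Other genes of the pathway, from lists chosen by function, are given by the same counts. For comparison, 57.6% of all genes with sufficient signal were above a ratio of 1 and 6.34% were at least 1.5-fold higher. Of 20 measured genes for cytosolic aminoacyl-tRNA synthetases and their scaffold proteins, which supply the charged tRNAs, 19 had ratios above 1, with a median log2 ratio of 0.28, and 1 was at least 1.5-fold higher. This was Farsa, a subunit of phenylalanyl-tRNA synthetase, with 276.4 in GPI-immunized and 177.0 in control splenocytes (ratio 1.56). Aimp2, a scaffold protein of the same complex as Eef1e1, had 409.6 in GPI-immunized and 276.4 in control cells (ratio 1.48), Rars 641.1 in GPI-immunized and 455.0 in control cells (ratio 1.41) and Nars 1066.6 in GPI-immunized and 761.8 in control cells (ratio 1.40). All 5 termination and recycling genes with sufficient signal were above 1, with a median log2 ratio of 0.44 that was 0.11 with averaged probe sets. They included the release factors Gspt1 (eRF3a; 773.0 in GPI-immunized and 521.9 in control cells, ratio 1.48) and Etf1 (eRF1; 595.8 in GPI-immunized and 424.4 in control cells, ratio 1.40) and the ribosome recycling ATPase Abce1 (666.5 in GPI-immunized and 490.0 in control cells, ratio 1.36). Mitochondrial factors, which serve a separate ribosome, had a median log2 ratio of 0.020 over 5 genes, or -0.071 after division by the medians, with 3 above 1 as deposited and Mtif2 lowest at 0.756. The poly(A)-binding proteins and partners had one of 0.081 over 5 genes, of which 3 were above 1, with Pabpc1 at 0.896, and a median of -0.0096 after division by the medians.

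The regulators were divided. Among all genes with sufficient signal, 57.6% were above a ratio of 1, 42.4% were below it and 6.34% were at least 1.5-fold higher. Of the 4 eIF2 kinases, which slow initiation under stress, 3 had ratios below 1 as deposited and the median log2 ratio was -0.24, which was -0.051 with division by the hybridization controls and -0.66 with averaged probe sets. Eif2ak4 (GCN2, the sensor of amino acid lack) had 102.5 in GPI-immunized and 138.6 in control splenocytes (ratio 0.740), Eif2ak1 (HRI, the heme sensor of erythroid cells) 622.7 in GPI-immunized and 774.3 in control cells (ratio 0.804), Eif2ak3 (PERK) 290.6 in GPI-immunized and 324.8 in control cells (ratio 0.895) and Eif2ak2 (PKR) 68.1 in GPI-immunized and 67.9 in control cells (ratio 1.00). The first 2 of these were among the lower ratios of all genes, at percentiles of 6.5 and 11.9. Of 7 genes of the integrated stress response, the program downstream of these kinases, 6 were above 1 and 1 was at least 1.5-fold higher (Atf3, 92.9 in GPI-immunized and 58.2 in control cells, ratio 1.60), while Ppp1r15a, a phosphatase subunit that reverses eIF2 phosphorylation, had a ratio of 0.737. Asns, which makes asparagine, had a ratio of 1.36 and Ppp1r15b, the constitutive paralogue of the inducible Ppp1r15a, one of 1.28. The mTOR list, with 6 of 11 above 1 and a median log2 ratio of 0.11, ran from 0.786 for Pdcd4, an inhibitor of eIF4A, to 1.46 for Tsc2, an inhibitor of mTOR. Tsc1, the partner of Tsc2, had a ratio of 0.818.

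**Figure D5:**
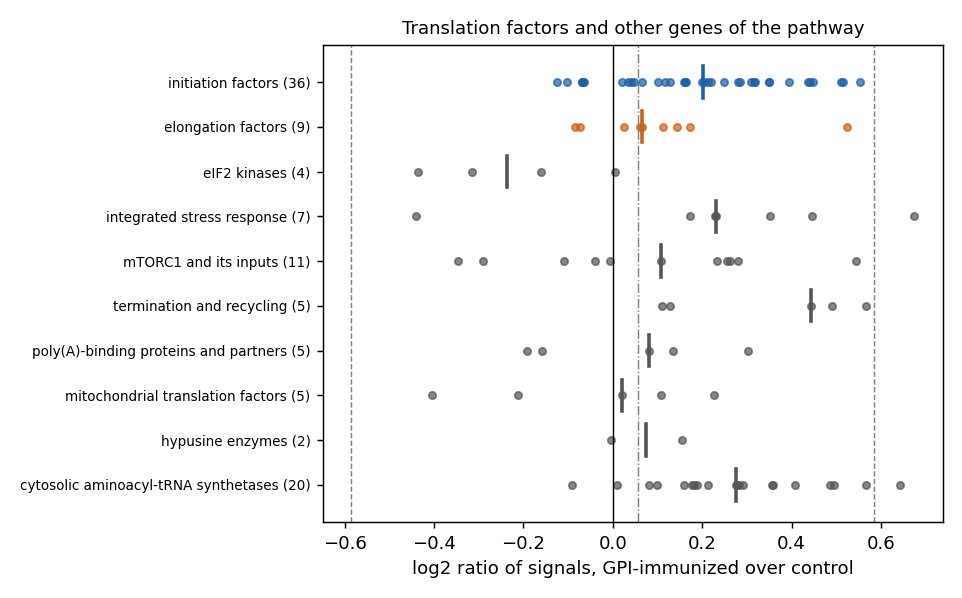
Log2 ratio, GPI-immunized over control (horizontal axis) for the factors and 8 lists of other translation genes (vertical axis, number of genes with sufficient mean signal in brackets), 1 point per gene and a bar at the list's median; lines mark a ratio of 1, the median of all genes and 1.5-fold. The synthetases (median 0.28) and the termination genes (0.44) lie mostly to the right of 0, as do the initiation factors, and the eIF2 kinases (-0.24) to the left.

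Cell type markers differed between the same arrays. Of 13 measured neutrophil genes, 12 had sufficient signal and all 12 had ratios above 1 (summed signals of 51083 in GPI-immunized and 34905.3 in control splenocytes). Of T cell markers 10 of 11 were below 1 (sums over 12 measured genes of 2051.6 in GPI-immunized and 2880.7 in control cells), and of B cell markers 10 of 10 (sums over 11 of 13571.6 in GPI-immunized and 18012.2 in control cells). Erythroid markers summed to 19406.5 in GPI-immunized and 21783.9 in control cells over 8 genes, with Hba-a1 at background on both arrays. Of the 7 erythroid markers with sufficient signal, 3 were above 1. Splenic macrophage markers summed to 4862.3 in GPI-immunized and 4152.7 in control cells over 8, with 7 above 1. Plasma cell genes summed to 8759.4 in GPI-immunized and 7588.6 in control cells over 6. Of the 4 plasma cell genes with sufficient signal, 3 were above 1. Among them Xbp1 had 2410.9 in GPI-immunized and 1275.6 in control cells, whereas Jchain had 5909.9 in GPI-immunized and 5850.2 in control cells. Proliferation genes, 7 of 9 above 1, summed to 20031.3 in GPI-immunized and 19207.5 in control cells, and their median log2 ratio of 0.11 lay between those of the initiation and the elongation factors. In the T cell, B cell, neutrophil, macrophage, plasma cell and proliferation lists 0 measured markers were at background on both arrays. The B cell marker without sufficient signal, Pax5, came close to it, with 15.0 in GPI-immunized and 6.4 in control cells. The Bacillus controls reached 14.1, so the Pax5 ratio of 2.34, opposite to the other B cell markers, is not interpreted. The part of these shifts in cell types in the ratios of the factors was not tested. The 3′/5′ signal ratios of β-actin, 1.42 in GPI-immunized and 1.49 in control splenocytes, and of Gapdh, 0.839 in GPI-immunized and 0.946 in control cells, were close on both arrays.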

How the data were processed

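The authors deposited for both arrays a linear intensity (signal) of 22626 probe sets and 64 control probe sets. The methods say only that gene expression software was used, and the sources used here name no summarization, scaling or detection call. The labels describe labelled cDNA from a whole-transcript kit and the paper biotinylated cRNA. Each column was assigned to its group by the sample labels. In the platform annotation 20380 probe sets have 1 symbol, 691 several and 1555 none; 6 probe sets annotated to several genes that include an Eif or Eef gene were not named, and eIF and eEF genes without a probe set of their own were not analysed here. All 47 symbols were matched by gene ID in RefSeq (GRCm38.p6). Ratios were formed without scaling, with 3 signals of 0 set to 0.1. Sufficient signal means a mean log2 signal at or above the 50th percentile of all signals (50.2), and the percentile of a ratio is its place among the 6784 genes that reach it. Genes were called at 1.5-fold, with 2-fold as an alternative. With 1 array per group, the number of arrays limits the precision and no p-value is given. Other scalings, floors, filters and choices of probe set were tried, and division by the bioB, bioC, bioD and cre controls was added after the data were seen. The members and lists were chosen with earlier results of these data known. Named in full were the initiation factors with the 6 highest and 6 lowest ratios, every elongation factor, the families and up to 4 genes per other list; further members were named by role. The steps were tested on simulated data. Tables were handled with pandas 2.3.3 and numpy 2.4.6 under Python 3.11.15. Loess came from statsmodels 0.14.6, rank correlations (described with no test) from scipy 1.17.1 and plots from matplotlib 3.10.9.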

Additional observations from a re-analysis of the deposited data

How the results depend on the processing

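The median log2 ratio of the initiation factors stayed above 0 in each setting tried. It was 0.11 after division by the array medians, 0.13 after quantile normalization, 0.14 after loess centring, 0.24 with averaged probe sets and 0.39 with division by the hybridization controls, added after the data were seen. The elongation median was -0.026 after division by the medians, -0.026 after quantile normalization, 0.11 when the 75th percentile was required, 0.12 with averaged probe sets and 0.25 with the hybridization controls, against 0.064 as deposited. Members of the elongation class with a ratio above 1 numbered 4 of 9 after division by the medians, 4 of 9 after quantile normalization and 4 of 5 when the 75th percentile was required. The shares of all genes above 1 in these settings were 45.1%, 46.6% and 57.7% in this order. Calls at 1.5-fold higher were 6 of 36 initiation factors (16.7%) and 1 of 9 elongation factors with the hybridization controls, against 14% of all genes. With averaged probe sets 2 of 36 initiation factors (5.56%) were called higher, against 8.18% of all genes, and 1 lower, against 4.02%; these were Eif3e and Eif3m, and Eif3h, each averaged with dim probe sets under the filter. With no filter 1 of 11 elongation factors, Eef2kmt, was called higher, against 16.9%. Over all genes, the higher and lower calls were 952 and 77 with the hybridization controls, 123 and 20 at 2-fold, 157 and 73 when the 75th percentile was required and 2095 and 1740 without a filter, and lower calls were 329 after division by the medians, 308 after loess centring and 323 after quantile normalization. The TOP list median turned to -0.0022 and -0.0019 under division by the medians and quantile normalization, and that of the mTOR list to -0.0063 with the filter at the 75th percentile. Of the 47 genes, 26 had 2 or more probe sets and could move with averaging. Averaging moved 9 of these 26 by over 0.24 on the log2 scale (Eif2d, Eif3a, Eif3e, Eif3h, Eif3l, Eif3m, Eif4e3, Eif4ebp2 and Eif5a). Leaving out shared probe sets moved 1 gene (Eif4g2) by that much and raising dim signals 1 (Eef2kmt). Filters cannot move a single gene. The causes were not tested. With 1 array per group no replicate could be left out. No paired analysis was possible because the groups share fewer than 2 replicate numbers. Ratios of dim probe sets, such as those of Eef2kmt and Eef1a2, are the least certain.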
